A study of Homo sapiens with 9 samples.

Results

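The olfactory receptor (OR) genes of chromosome 11 were examined for γH2AX binding sites in a human B lymphocyte line under 3 replication stress inducers. Members were the protein-coding genes of GENCODE release 44 (GRCh38) on chromosome 11 whose symbol was OR, a family number, 1 or 2 letters and a member number. This rule gave 172 genes of the 1317 protein-coding genes of the chromosome, which left 1145 others, and it used no measured value. Each gene was extended by 10 kb to each side and overlapping intervals were merged into 93 regions, called OR regions here. They held 3.56 Mb, or 2.64% of the assembled bases of chromosome 11, against 131 Mb in the rest of the chromosome. The study treated the lymphoblastoid cells (GM09027A in the labels, GM07027 in the paper) for 24 h and pulled down DNA bound to γH2AX, the phosphorylated histone H2AX that marks chromatin around broken DNA and stalled replication forks. Its groups, with 2 biological replicates each, were untreated cells, 0.1 μg/mL aphidicolin (APH, an inhibitor of replicative DNA polymerases), 2 mM hydroxyurea (HU, which depletes deoxynucleotides) and 200 μM methyl methanesulfonate (MMS, which alkylates DNA bases). All groups were 1 cell line, so the values describe that line. The data were 8 lists of broad peaks, one per library, with 4779 and 4327 peaks without treatment, 17658 and 14009 with APH, 79943 and 69975 with HU, and 12204 and 10466 with MMS. Read depth is unknown, since the lists hold no reads, and a missing peak means only that none was called.

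OR genes encode odorant receptors, G protein-coupled receptors of the olfactory epithelium, where each sensory neuron expresses a single OR allele. They form the largest gene family of mammals, lie in tandem clusters and are silent in most other cells, B lymphocytes among them. Class I receptors (families OR51 to OR56) are related to those of fish and form 1 cluster on the short arm, near the β-globin genes, and the remaining families are class II. RNA was not measured in these libraries, so the silence of the genes was not tested.

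γH2AX peaks were sparse over the OR regions in every list. The 8 lists held 34 peaks there, where the density of the rest of chromosome 11 would give 321.5, so observed over expected was 0.106. In untreated cells the first list had 0 OR peaks against 6.71 expected, and the second had 2 against 5.38. Under APH the lists had 5 against 26.8 expected and 6 against 21.3. Under HU they had 6 against 119 and 4 against 109, so the lists with by far the most peaks on the chromosome (4405 and 4021) added hardly any to the OR regions. Under MMS the lists had 4 against 17.8 and 7 against 14.9. All 8 counts were under their expected values. The log2 ratio of observed to expected peaks (0.5 peak added to both) averaged −2.63 ± 1.39 (SD, n = 8) and was below 0 in 8 of 8 lists (exact sign-flip permutation test over lists, two-sided, p = 0.0078, the smallest 8 lists can give, Benjamini-Hochberg adjusted 0.043 over 11 tests). The lists come from 1 cell line, and the series has 1 input library, so they are not fully independent. The test measures agreement between lists, not how often other regions of this size hold as few peaks.

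**Figure D1:**
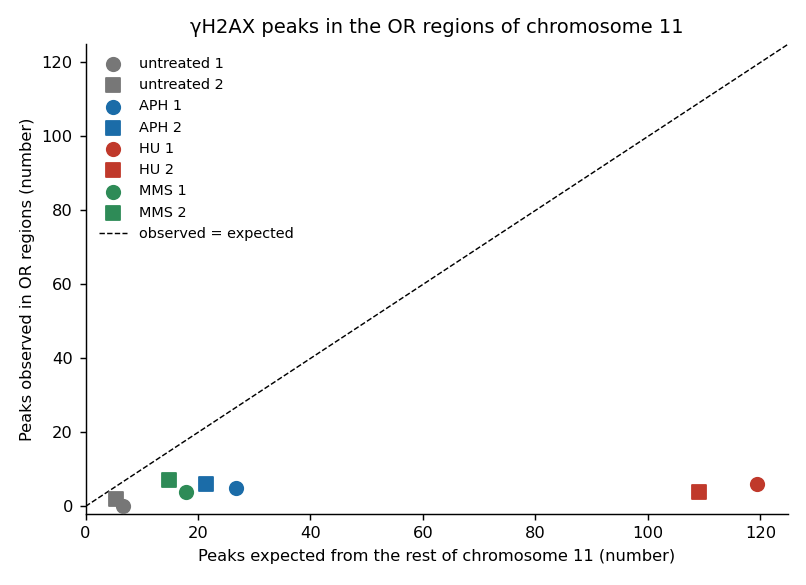
Peaks observed in the OR regions (vertical axis, number) against the number expected from the density of the rest of chromosome 11 (horizontal axis, number), 1 point per list, circles for replicate 1 and squares for replicate 2. The dashed line marks equality. All 8 points lie under it, and the 2 HU points have 6 and 4 peaks at 119 and 109 expected.

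As densities, untreated cells had 0.281 ± 0.398 OR peaks per Mb (SD, n = 2) against 1.70 in the rest of the chromosome. APH gave 1.55 ± 0.199 against 6.76, MMS 1.55 ± 0.596 against 4.60 and HU 1.41 ± 0.398 against 32.1. The OR densities of the 3 treatments overlapped, while the densities of the rest did not. Of all chromosome 11 peaks, the OR regions held 0.136% (95% exact binomial interval 0.050 to 0.296) and 0.0995% (0.0271 to 0.255) in the HU lists, against 2.64% of the bases. Untreated 1 held 0 of 247 peaks, which allows a share of up to 1.21% by the limit of 3 counts, or 1.48% as the upper end of the exact interval. The intervals and the limit cover counting error only.

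The order of the groups was HU, untreated, APH and MMS from the lowest observed over expected value, at 0.0437, 0.165, 0.229 and 0.336. The log2 ratios were −4.21 and −4.61 for HU, −3.85 and −1.23 for untreated, −2.31 and −1.75 for APH, and −2.03 and −1.03 for MMS. The untreated lists spread widest, enclosing both APH lists and 1 MMS list, and the differences between these 3 neighbours were smaller than that spread. Untreated 1 had 0 OR peaks, so its ratio depends on the amount added. With 0.1 peak it was −6.09, under HU at −4.29 and −4.74. With 0.5 peak the 2 HU lists lay under the 6 others, with a mean difference of −2.37 (exact permutation of list labels, two-sided, p = 0.036, the smallest this split can give, adjusted 0.098). That difference did not pass the adjusted threshold, and with equal numbers of strongest peaks from every list (4327) it was −1.41 (exact permutation p = 0.143), with 0 OR peaks under HU and 2 in each other group. Against untreated cells alone the differences were −1.86 for HU, 0.51 for APH and 1.01 for MMS (exact permutation p = 0.333, 1 and 0.667, where 2 lists against 2 cannot go below 0.333). The 6 treated lists together differed from the 2 untreated by −0.11 (exact permutation p = 0.964). No test against untreated cells passed its threshold.

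The size of the deficit depended on the background. OR regions are poor in G and C, with 37.7% against 41.6% in the rest of chromosome 11, and peaks elsewhere on the chromosome lay in sequence of 45.2 to 48.0% GC. With the background weighted to the GC content of the OR regions, observed over expected was 0.297 without treatment, 0.433 with APH, 0.0638 with HU and 0.523 with MMS. With the background restricted to bases over 10 kb from protein-coding genes of other kinds, it was 0.265, 0.407, 0.0967 and 0.779. With both together, a setting chosen after the data were seen, it was 0.396, 0.650, 0.131 and 1.02, and 7 of 8 lists stayed below their expected count (mean log2 ratio −1.21, exact sign-flip permutation p = 0.0313). Under MMS the OR regions thus held 11 peaks where gene-poor sequence of the same GC content gave 10.7. Under HU they held 10 where it gave 76.1. The OR regions were not restricted in the same way, and 23.7% of their bases lay within 10 kb of a protein-coding gene of another kind. Unique mapping differed little, as 90.3% of 100-base tiles of the OR regions mapped back to their own place at a mapping quality of at least 40, against 87.4% in the rest. In windows of 1 kb whose tiles all mapped uniquely, observed over expected was 0.112.

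**Figure D2:**
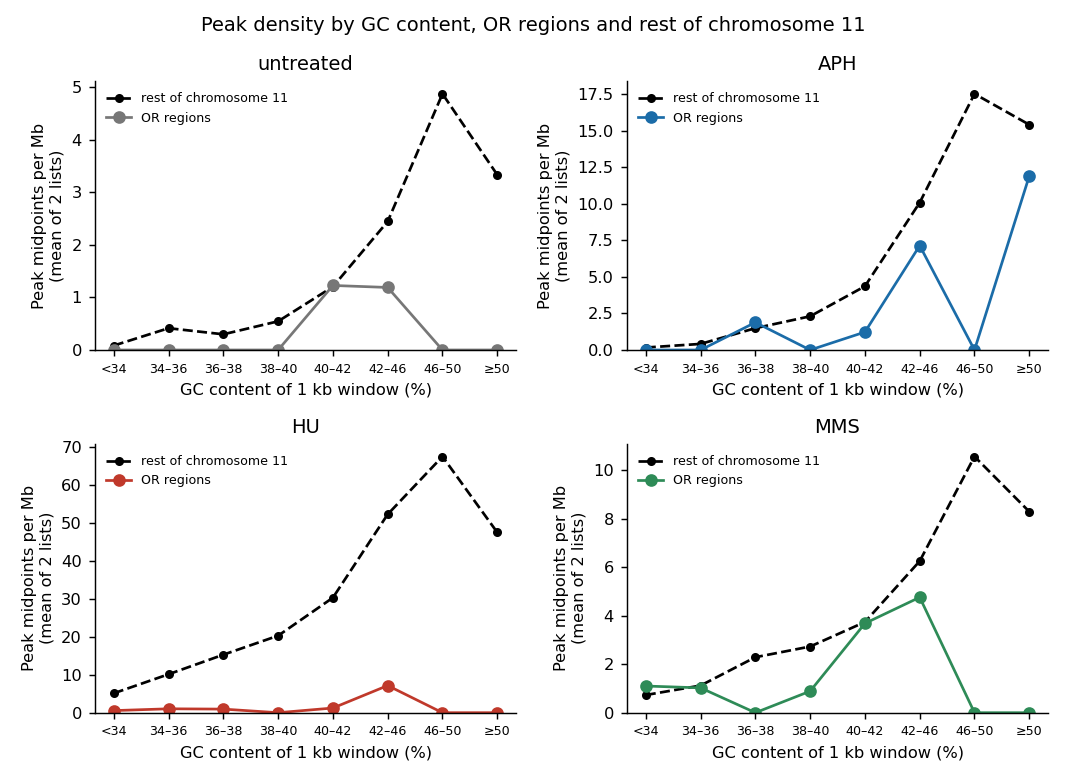
Peak midpoints per Mb (vertical axis, mean of 2 lists, a scale per panel) in 1 kb windows by GC content (horizontal axis, percent), with the OR regions as solid coloured lines and the rest of chromosome 11 as dashed black lines, 1 panel per group. Under HU the OR line lies under the dashed line in every bin, with 7.14 against 52.2 per Mb at 42 to 46% GC. Under MMS the lines meet at 40 to 42% GC, with 3.69 against 3.74, and the OR line is higher under 34% GC, with 1.10 against 0.729. Under APH it is higher at 36 to 38% GC, with 1.89 against 1.49. These OR values rest on few peaks, 6, 3 and 3 over all lists in the 3 bins.

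Within single GC bins the HU lists kept the same order throughout. Under 34% GC, where 25.5% of OR windows lay, HU gave 0.550 OR peaks per Mb against 5.11 in the rest. At 38 to 40% GC it gave 0 against 20.3. Of the 34 OR peaks of all lists, 17 lay by midpoint in windows of 42 to 46% GC, a bin that held 11.8% of OR windows. APH reached 7.14 against 10.1 per Mb there, and MMS 4.76 against 6.25. The 34 peaks had a median GC content of 42.6% (29.1 to 56.1), and 29 of them lay above the mean of the OR regions. Their CpG content was 5.65 per kb, close to the 6.26 of the OR regions and under the 9.58 to 11.9 of the other chromosome 11 peaks.

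The scarcity of peaks reached past the 10 kb limit of the regions. Under HU the density was 1.41 peaks per Mb in the OR regions, 2.58 in the next 10 kb, 9.07 at 10 to 50 kb and 24.9 at 50 to 100 kb. It reached 46.9 at 100 to 250 kb and 63.9 at 1000 to 2000 kb, and was 27.9 beyond 2000 kb. Both HU lists followed this course. APH gave 1.55 in the regions, 1.47 in the next 10 kb and 13.6 at 100 to 250 kb, MMS 1.55, 1.84 and 6.81, and untreated cells 0.281, 0 and 2.17. The sequence around the clusters, from 100 to 2000 kb, was thus denser in peaks than the chromosome beyond 2000 kb in the mean of each of the 4 groups, and the profile is a description with no test.

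**Figure D3:**
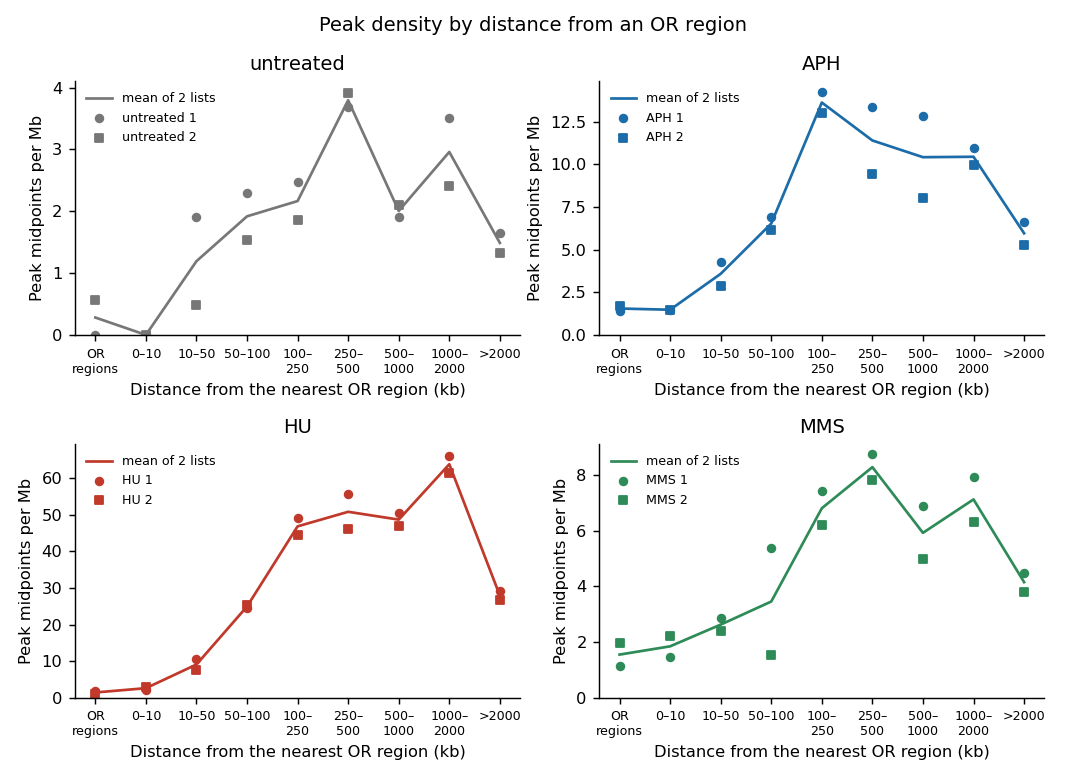
Peak midpoints per Mb (vertical axis, a scale per panel) in the OR regions and by distance from the nearest OR region (horizontal axis, kb), 1 panel per group, with each list as a point and the mean of 2 lists as a line. Under HU the mean climbs from 1.41 per Mb in the OR regions to 46.9 at 100 to 250 kb.

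Gene by gene, 144 of the 172 OR genes (83.7%) had no peak within 10 kb in any list, and 28 (16.3%) had at least 1, against 75.3% of all protein-coding genes of chromosome 11. The other genes are longer, so these shares are over unequal lengths. No OR gene had a peak over its promoter window, from 250 bases before to 50 after the annotated start, and 5.24% of all protein-coding genes of the chromosome did. At the density of the OR regions themselves about 1.48 such overlaps would be expected, too few to say anything of the promoters apart from the regions. Within 10 kb of the start, 0 and 2 of 172 OR genes had a peak in the untreated lists, while 7.67% and 6.91% of all protein-coding genes of chromosome 11 did. Under APH 4 and 5 OR genes did, against 22.2% and 20.1% of all genes. Under HU 4 and 1 did, against 55.4% and 53.5%. Under MMS 3 and 4 did, against 17.5% and 14.8%. As shares, the OR genes stayed at or under 2.91% in each list, while the other protein-coding genes went from 7.77% in untreated 2 to 63.3% in HU 1. The mean difference was −26.6 percentage points, below 0 in 8 of 8 lists (exact sign-flip permutation p = 0.0078, adjusted 0.043).

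**Figure D4:**
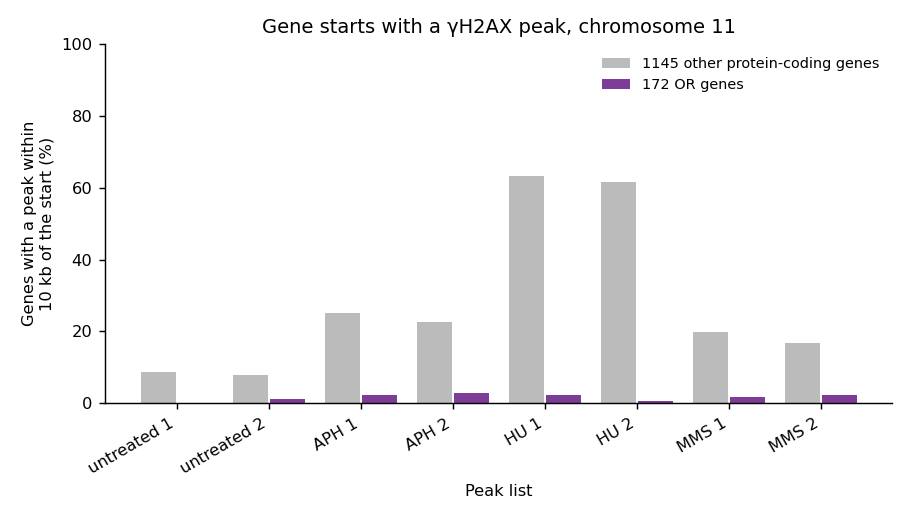
Share of genes of chromosome 11 with a peak within 10 kb of the start (vertical axis, percent) in each of the 8 lists (horizontal axis), grey bars for the 1145 other protein-coding genes and purple bars for the 172 OR genes. The grey bars reach 63.3% in HU 1 and the purple bars at most 2.91%, in APH 2.

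A peak lay over the gene body of 7 OR genes (4.07%), against 64.5% of all protein-coding genes of chromosome 11, which are mostly longer. Per base, the OR gene bodies held 10 peaks against 86.1 expected from the rest of the chromosome. The 7 genes were OR52K1 (untreated 2), OR51E1 (APH 1), OR51B5 (MMS 1), OR2AG1 (MMS 2), OR9Q1 (APH 2, MMS 1 and MMS 2), OR4D10 (HU 1) and OR2AT4 (2 peaks of HU 1). Some of these gene models are long for the family, whose median length was 1082.5 bp: OR51B5 spans 202209 bp and OR9Q1 157736 bp, and the peaks lay in their introns. OR51E1, a receptor also known from prostate, had 1 intronic peak under APH at chr11:4650481-4651036, 7061 bp from its start, and its neighbour OR51E2, also expressed in prostate, had 0 peaks in all 8 lists. OR5A1 and OR5AN1, known as receptors for β-ionone and musk, and OR10G4, a receptor for guaiacol, had 0 as well.

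By group, the genes with the most peaks within 10 kb were few. At most 6 are named per group, with ties broken by lower coordinate. Further genes with 1 peak under APH, HU or MMS are therefore left out. In untreated cells OR52K1 and OR52M1, both class I, had 1 each in replicate 2 and no other gene had any. Under APH each gene with a peak had 1, among them OR52I2, OR52I1, OR51A7 and OR51B5 in replicate 2 and OR51D1 and OR51E1 in replicate 1. Under HU OR2AT4 had 5, and OR52I2, OR52I1 and OR5B21 had 1 in replicate 1 and OR52W1 and OR2AG2 1 in replicate 2. Under MMS OR52I2 had 2, both in replicate 2, OR9Q1 had 1 in each list, OR51F1 and OR52N2 had 1 in replicate 2, and OR51B5 and OR51M1 1 in replicate 1. Neighbouring genes share peaks here, since a peak near OR52I1 or in OR51E1 also lay within 10 kb of OR52I2 or OR51D1. Over the 8 lists, 6 genes had a peak in more than 1 list, and 3 of them, OR52I2, OR52W1 and OR9Q1, in 3 lists. Such recurrence was not counted for all protein-coding genes, so these counts have no share to be set against.

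The peaks present did not recur. None of the 34 overlapped a peak of the other list of its group, so no OR site was found in both replicates of a group. None overlapped a peak of another group either, but that share was not computed for the other chromosome 11 peaks. Elsewhere on chromosome 11, 45.1% and 50.7% of the HU peaks overlapped a peak of the other HU list, and 4.26 to 9.41% of peaks did in the other groups. The lists of the other groups had at most 7 OR peaks each, too few to show a difference from shares this low, so the contrast rests on the 6 and 4 OR peaks of the HU lists and is given as a description. Fold enrichment over input was low for all OR peaks, from 2.37 to 2.96 with a median of 2.60, and −log10 p ran from 3.05 to 4.48, close to the calling threshold. Their median differed from that of the other chromosome 11 peaks by −0.0588 on average and was lower in 6 of 7 lists (exact sign-flip permutation p = 0.0469, adjusted 0.103). No OR peak reached a fold of 3, where the shares among the other peaks of each list would give 2.61 of 34. Widths were 232 to 1769 bp with a median of 580.5, and their difference from other peaks, −32 bp, was not distinguishable from 0 (exact sign-flip permutation p = 0.547). A q value of at most 0.05 was reached by 7 peaks, all from the HU lists, a share not computed for the other chromosome 11 peaks. The lists differ in the q given at a similar p, so this count does not rank the peaks by strength. An APH 2 peak with −log10 p of 4.42 had a q of 0.130, and a HU 1 peak with 3.51 had 0.0493.

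OR2AT4, a class II gene that responds to sandalwood odorants, stood alone on the long arm, with no other OR gene in its region. It was 1 of 2 OR genes with a peak within 10 kb in both lists of a group, a count not made for other genes. It had 3 peaks in HU 1, 2 in HU 2 and 0 in the other 6 lists. These were 5 of the 10 HU peaks in the OR regions, in 35.1 kb where 3.17 peaks were expected over all lists. The 5 peaks lay within 11.4 kb, at and downstream of the 3′ end of the gene, and those of HU 1 and HU 2 came within 720 bp of each other without overlapping. From the p arm side, they spanned 1769 bp (HU 1), 623 and 751 bp (HU 2) and 705 and 327 bp (HU 1), with folds of 2.76, 2.57, 2.66, 2.81 and 2.51. The first 3 lay in exons of a long noncoding RNA gene, ENSG00000284722, and the others in annotated untranslated sequence of OR2AT4. Without this region observed over expected under HU was 0.0221, and that of all lists 0.0911. The other gene was OR9Q1, with 1 intronic peak in each MMS list, at chr11:58046712-58047425 and chr11:58077177-58077576, and 1 in APH 2. These MMS peaks lay far apart within the long gene model.

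A few of the marked sequences follow, to show what the sites at these genes consist of. They are given from the GRCh38 plus strand, as the central 300 bases or the whole peak where shorter, for the highest peak of HU 1 at OR2AT4 outside annotated UTRs, the peak nearest to an OR start, both MMS peaks in OR9Q1 and the OR peak of the highest fold. Capitals mark CpG dinucleotides.
OR2AT4 under HU 1, chr11:75076249-75076548: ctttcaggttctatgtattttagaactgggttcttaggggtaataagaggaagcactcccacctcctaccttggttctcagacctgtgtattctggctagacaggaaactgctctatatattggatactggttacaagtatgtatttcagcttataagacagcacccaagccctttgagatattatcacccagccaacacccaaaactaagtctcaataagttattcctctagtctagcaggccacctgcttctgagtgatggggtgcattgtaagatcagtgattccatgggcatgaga
OR4D10 under HU 1, chr11:59474120-59474419: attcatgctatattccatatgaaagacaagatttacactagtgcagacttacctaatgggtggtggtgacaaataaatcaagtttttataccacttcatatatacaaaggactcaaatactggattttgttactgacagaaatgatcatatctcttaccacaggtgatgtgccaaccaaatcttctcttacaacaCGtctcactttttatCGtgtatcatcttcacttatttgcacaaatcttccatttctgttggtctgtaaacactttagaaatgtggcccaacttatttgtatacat
OR9Q1 under MMS 1, chr11:58046919-58047218: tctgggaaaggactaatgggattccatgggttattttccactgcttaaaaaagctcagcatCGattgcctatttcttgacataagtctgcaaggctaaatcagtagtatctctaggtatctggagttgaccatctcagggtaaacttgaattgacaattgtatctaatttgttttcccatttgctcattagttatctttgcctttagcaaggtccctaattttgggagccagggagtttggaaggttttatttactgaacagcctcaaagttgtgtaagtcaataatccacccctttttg
OR9Q1 under MMS 2, chr11:58077227-58077526: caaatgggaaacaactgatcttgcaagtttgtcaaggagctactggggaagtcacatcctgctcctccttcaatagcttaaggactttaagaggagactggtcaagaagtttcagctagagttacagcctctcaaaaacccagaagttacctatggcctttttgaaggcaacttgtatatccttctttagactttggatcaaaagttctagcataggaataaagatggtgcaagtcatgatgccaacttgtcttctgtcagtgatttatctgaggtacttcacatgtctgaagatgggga
OR56A4 under APH 2, chr11:6012443-6012695: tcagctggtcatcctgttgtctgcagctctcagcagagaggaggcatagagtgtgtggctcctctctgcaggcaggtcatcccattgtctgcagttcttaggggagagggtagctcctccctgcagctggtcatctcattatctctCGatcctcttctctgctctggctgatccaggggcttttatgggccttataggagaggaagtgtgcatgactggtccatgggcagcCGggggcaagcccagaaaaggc
The OR2AT4 sequence holds 0 CpG dinucleotides at 43.3% GC. The OR4D10 sequence, in an intron 747 bp from the start of that class II gene, has 34.3% GC and 2 CpG dinucleotides. The OR9Q1 sequences have 39.0% and 41.7% GC with 1 and 0, and the second lies in the OR pseudogene OR9L1P. The intergenic peak near OR56A4, a class I gene, had the highest fold of the 34, 2.96, with 56.1% GC and 2 CpG dinucleotides in 253 bp.

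The clusters, defined as OR regions less than 500 kb apart, differed in how many peaks they held. Class I genes, all 55 of them, formed 1 span of 1.85 Mb from OR52B4 to OR52W1 on the short arm. Its OR regions held 18 of the 34 peaks, 2 from untreated, 8 from APH, 2 from HU and 6 from MMS lists, against 104.8 expected over all lists. Over all OR regions the HU lists gave 229 of the 321.5 expected peaks. Sums over all lists therefore weigh HU most, for this and the other clusters. A peak lay within 10 kb of 17 class I genes. OR52I2 had the most, 4 peaks, 1 each in APH 2 and HU 1 and 2 in MMS 2. OR52W1 had 3, 1 each in APH 1, HU 2 and MMS 1. Several of these peaks overlapped other genes, such as TRIM68 near OR52I1 in APH 2 and HU 1 and C11orf42 near OR52W1 in APH 1 and HU 2, while the MMS 1 peak near OR52W1 was intergenic. By family, OR52 had 8 of 27 genes with a peak, OR51 6 of 22 and OR56 3 of 6.

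Among the class II clusters, the span from OR4A16 to OR5AK2 on the long arm near the centromere, with 48 genes, held 1 peak (MMS 1, near OR5M1) against 83.2 expected. The span from OR6X1 to OR8A1, near the end of the long arm with 22 genes, held 0 against 38.5. The spans from OR5P2 to OR10A3, OR4C13 to OR4C45 and OR4C46 to OR4A5 also held 0, with 7.60, 5.69 and 5.69 expected. The span from OR9Q1 to OR5B21 held 4 against 31.5, that from OR5AN1 to OR10V1 3 against 15.7, that from OR2AG2 to OR2D3 2 against 12.8, and that from OR4B1 to OR4A47 1 against 12.9. OR2AT4 was the 1 span with more peaks than expected. Families OR8, OR10 and OR1 had peaks at 0 of 23, 0 of 16 and 0 of 2 genes, OR5 at 2 of 35, OR4 at 4 of 26, OR6 at 1 of 5, OR9 at 1 of 5 and OR2 at 3 of 5. Per Mb and list, class I regions had 1.94 peaks and class II regions 0.834. The log2 ratio of class I to class II density averaged 0.84 over lists, and was below 0 in 2 of 8, both HU lists (exact sign-flip permutation p = 0.125, adjusted 0.229). The classes were therefore not distinguished.

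**Figure D5:**
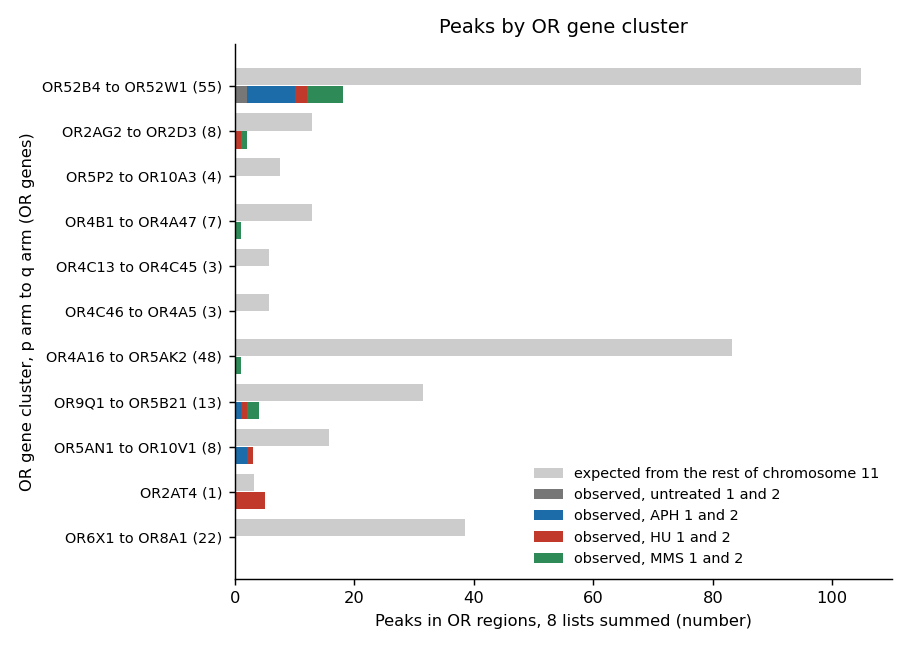
Peaks in the OR regions of the 11 OR clusters of chromosome 11 (vertical axis, in order along the chromosome, number of OR genes in brackets), summed over 8 lists (horizontal axis, number), observed as stacked bars by group and expected as grey bars. The observed bar is shorter than the expected one in 10 clusters and longer at OR2AT4, with 5 against 3.17. Most of the expected number comes from the HU lists.

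Other gene groups of chromosome 11, treated the same way, showed how the OR regions compared with their neighbours. The TRIM genes (TRIM5, TRIM22 and others, antiviral ubiquitin ligases) lie among and just beyond the class I OR genes. Their sequence outside OR regions held 50 peaks against 20.6 expected, 24 of them under HU against 14.7. The β-globin genes, which serve red cell precursors, held 1 peak outside OR regions against 6.83. The matrix metalloproteinase genes of the long arm held 34 against 26.6, 33 of them under HU. The MS4A genes, which include the B cell gene MS4A1, held 45 against 51.7, and the KRTAP5 genes, which encode hair keratin-associated proteins, 7 against 16.6. These lists have no test here. Between the OR regions of the class I span, 17 peaks lay in 693 kb against 62.6 expected.

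The 228 OR genes of the other chromosomes, found by the same symbol rule, had 243 peaks within 10 kb against 506.7 expected from the rest of their own chromosomes. In untreated cells they had 29 and 23 against 11.8 and 10.2, and under HU 50 and 38 against 193 and 172. Of the 243 peaks, 78 lay at the 4 genes of chromosome 5, among them 16 and 18 of the untreated lists. Without that chromosome the untreated lists had 13 and 5 against 11.7 and 10.1 expected, and the HU lists 44 and 36 against 191 and 171. The log2 ratio of chromosome 11 was lower than that of the other chromosomes in 8 of 8 lists, with a mean difference of −2.23 ± 1.41 (SD, n = 8, exact sign-flip permutation p = 0.0078, the smallest possible, a comparison added after the data were seen). Without chromosome 5 the difference was −1.57 ± 1.27 with the same p in the exact permutation test. The other chromosomes were unlike each other. The 63 OR genes of chromosome 1 had 6 peaks over the 8 lists, 0 of them under HU, and the 17 of chromosome 6 had 0. Those of chromosomes 14, 15 and 16 had 40, 25 and 28. The difference is therefore from the pooled chromosomes, and chromosome 11 was not tested against single ones.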

How the data were processed

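Members and gene lists were chosen with earlier results of these data known. The 8 peak lists came from γH2AX ChIP-seq of untreated, APH, HU and MMS cells, 2 replicates each, while the input library's own data were not used here. The authors aligned paired-end reads with Bowtie2 to hg38, discarded reads of mapping quality under 40 and PCR duplicates, called broad peaks for each replicate against input with MACS2 at p 0.001, and removed blacklisted regions (versions are not given in the sources used here). The lists deposited by the authors give per peak a display score (not used for results), a fold enrichment over input, a −log10 p-value and a −log10 q-value. Peak calls depend on depth and on the mapping filter, and depth is unknown.

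A peak was counted in an OR region on 1 bp of overlap. Expected counts were the peaks per assembled base of the rest of chromosome 11 times the OR bases, and 0.5 peak was added before logs. Lists were the units of exact two-sided permutation tests (numpy 2.4.6), adjusted over 11 tests by Benjamini-Hochberg. Exact binomial intervals came from scipy 1.17.1. Replicates are independent biological ones by the study's account. Tiles were mapped with minimap2 2.31. Scripts were tested on simulated lists. Named genes were the 6 with the most peaks per group, those with a peak at the promoter, in both lists of a group or over the body in several groups, and 5 receptors (OR5A1, OR5AN1, OR10G4, OR51E1, OR51E2). Genes outside this rule were named after their values were seen. One sequence is not reported here. Alternatives changed the overlap, extension, peak filter, background, pseudocount and lists.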

Additional observations from a re-analysis of the deposited data

Results flagged for a closer look

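The HU lists stood apart from the 6 other lists in the log2 ratio of observed to expected OR peaks, by −2.37. With 0.5 peak added to observed and expected counts, both HU lists lay under every other list. The exact permutation of list labels then gave p = 0.036, or 0.098 after adjustment over 11 tests. The order depends on the amount added, since untreated 1 had 0 OR peaks. With 0.1 peak added, untreated 1 was lowest at −6.09, against −4.29 for HU 1 and −4.74 for HU 2.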

How the results depend on the processing

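The OR deficit kept its direction and passed its test, unadjusted, under 19 of 19 alternatives (mean log2 ratio −2.99 to −1.21). It also did without each list in turn (−2.85 to −2.34). The start window difference did so under its 3 alternatives and without each list (−29.4 to −21.6 points). For the deficit, the filters on fold and on both replicates fixed the outcome in advance, as they left 0 OR peaks. The midpoint and 50% overlap rules changed none of its values. HU against the 6 other lists lost its call with equal numbers of strongest peaks (−1.41, exact permutation p = 0.143), against background outside protein-coding genes (−2.09, p = 0.0714) and with pseudocount 0.1 (−2.03, p = 0.179). It ranged from −2.74 to −2.17 without single lists, and without HU 1 or HU 2 no p below 0.143 is possible. The treated lists together reversed against untreated with background outside genes (0.32, or 0.30 weighted to GC content) and pseudocount 0.1 (1.00), and ranged from −1.42 to 1.19 without single lists. APH against untreated reversed with gene bodies alone (−0.92), 50 kb extension (−0.0824), cluster spans (−0.55), stronger 50% of peaks (−0.85), fold of at least 3 (−0.93), peaks in both replicates (−1.56) and bases covered (−0.0921), with −0.80 to 1.82 without single lists. MMS reversed with a fold of at least 3 (−1.15), peaks in both replicates (−0.56) and equal numbers (−0.16), with −0.30 to 2.32 without single lists, and HU stayed negative throughout (−3.17 to −0.56 without single lists). Reversals came without untreated 2, HU 1 or HU 2 for the treated lists together and without untreated 1 for APH and MMS. The filters on fold and on both replicates left 0 OR peaks in all lists, so their values reflect only the expected counts. The fold enrichment difference lost its call among stronger peaks (−0.0477, exact permutation p = 0.297), and also without untreated 2, APH 2, HU 1, HU 2, MMS 1 or MMS 2, but not without APH 1 (−0.0713 to −0.0515 without single lists). The width difference reversed among stronger peaks (25.7 bp) and without HU 1 (range −58.7 to 1.08 without single lists). Class I against class II passed unadjusted over cluster spans (0.91, exact permutation p = 0.0469), and ranged from 0.60 to 1.09 without single lists. With list labels permuted within replicate number (replicate block), differences from untreated keep their values by construction (−0.11, −1.86, 0.51 and 1.01 for all treated, HU, APH and MMS). None could pass, since the smallest p of this exact permutation is 0.0625 for 6 lists against 2 and 0.5 for 2 against 2. The labels do not say whether replicates of the same number were handled together. Correlations of replicate differences between groups over 136 bins of 1 Mb ran from −0.163 to 0.142, which cannot settle it. No test of replicate sharing is given, since with 0 shared OR peaks in every list its sign was fixed and the lists of a group share each overlap. Causes were not tested. Depth is unknown, and 2 lists a group limit every comparison between groups.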
